A study of Rattus norvegicus with 24 samples.

Results

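Sciatic nerves of rats that carry extra copies of Pmp22 (Tg) were followed from postnatal day 6 (P6) to postnatal day 18 (P18). The comparison rests on 4 P6 Tg and 4 P18 Tg libraries, which are 8 of the 24 libraries of the series and were taken by genotype and age as labelled. The other libraries are wild-type (Wt) nerves of the same ages, with 4 libraries each, and nerves of both genotypes at embryonic day 21 (E21). The question was which genes still changed in Tg nerve after P6 as they did in Wt nerve, which stopped changing, and which moved the other way. The labels name no treatment, sex or litter, and the methods name the rat line SD-Tg(Pmp22)Kan for the therapy trials of the study. The Tg rat is a model of Charcot-Marie-Tooth disease 1A, in which the PMP22 gene is duplicated. Its added copies are of the mouse gene. The epineurium, the outer connective tissue sheath, was removed before polyA RNA was taken from the rest of the nerve, so that Schwann cells, axons, vessels and connective tissue were measured together.

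Schwann cells wrap a single axon with many layers of membrane, the myelin sheath, and most of this membrane is laid down in the first postnatal weeks. Compact myelin is held together by a few abundant proteins, among them MBP and PMP22, and it is rich in cholesterol and galactolipids that the Schwann cell makes itself. Before myelination, Schwann cells express NGFR, JUN and SOX2, which fall as the myelin genes rise under the control of EGR2 and SOX10. After nerve injury, Schwann cells leave the myelinating state, switch these early genes on again and add others, such as Shh and Runx2, that are low in development.

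The unit of measurement was the expected count per gene, scaled to the library's size as CPM with edgeR's TMM factors and given below as normalized CPM, one value per library in the order of replicates 1 to 4. Total counts ran from 15156424 to 24126945 in P6 Tg and from 12071760 to 16624373 in P18 Tg. The label was checked first, on Pmp22. It had 26462, 23982, 24039 and 24864 normalized CPM at P6 and 23885, 25212, 24929 and 24535 at P18 in the libraries labelled Tg. Libraries labelled Wt had 23102 ± 602 and 45654 ± 823 (mean ± SD, n = 4 here and below), so that at P18 every library labelled Tg was lower than every library labelled Wt. This goes against the label, and Tg and Wt below mean libraries labelled so. Reads were aligned to the rat genome, and whether they come from the rat gene or from the added copies cannot be told apart. Another gene, AC130064.1, separated the labels, with 14.6, 12.5, 13.3 and 9.73 normalized CPM in P6 Tg, 12.2, 11.5, 11 and 12 in P18 Tg, 0 counts in every P6 Wt library and 0.022 ± 0.044 in P18 Wt. The nerve label was checked on the Schwann cell genes Mbp and Sox10, for which the lowest of the 16 P6 and P18 libraries had 10402 and 157 normalized CPM.

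P18 Tg replicate 4 and P18 Wt replicate 3 stood apart. The ribosomal RNA gene Rn5-8s had 5.3, 6.11, 4.72 and 289.8 normalized CPM in P18 Tg and 2.95, 2.26, 1.79 and 1.8 in P6 Tg, so that P18 Tg replicate 4 was far above the rest. Mx1, an antiviral protein, had 6.11, 8.31, 8.91 and 55 in P18 Tg, again highest in replicate 4. P18 Wt replicate 3, which enters every difference of changes, had the lowest total of the 24 libraries (9700644) and counts in 15655 genes, against 17811 to 18568 in the other P18 Wt libraries. Without it 3219 genes rose and 3302 fell in Tg, against the 2849 and 2855 given below, and 805 differences were higher and 792 lower. Reads of the Y-linked genes Eif2s3y and Kdm5d were present in 2 of 4 P6 Tg, 3 of 4 P18 Tg, 3 of 4 P6 Wt and 1 of 4 P18 Wt libraries, and so not equally often in the groups. Calls that changed without 1 library, or with a term for Y-linked reads, are named or counted beside the result. The design text calls the libraries biological replicates and does not say whether littermates were used. RNA came from the nerve without its epineurium, where a lower level can mean fewer cells of a kind or less RNA in each of them. These cannot be told apart.

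Of 15951 tested genes, 2849 (17.9%) rose and 2855 (17.9%) fell, in all 35.8%, in Tg from P6 to P18 (edgeR's quasi-likelihood test, Benjamini-Hochberg adjusted p under 0.05). The Tg libraries of the 2 ages did not overlap in 39.0% of all tested genes, with P18 above P6 in 19.5% and below it in 19.5%. In Wt, 3269 genes (20.5%) rose and 3397 (21.3%) fell, in all 41.8%. Of the genes that rose in Wt, 58.9% also rose in Tg, 2.57% fell and 38.5% were not called. Of those that fell in Wt, 54.0% also fell in Tg, 2.27% rose and 43.8% were not called. A gene called in Wt and not in Tg is not thereby shown to differ. The difference of the 2 changes was therefore tested itself, and it was called for 1608 genes (10.1%), of which 844 (5.29%) had the higher change in Tg and 764 (4.79%) the lower.

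The genes with a called difference fell into 5 groups. Stalled genes, which changed in Wt and were not called in Tg, were the most frequent, with 587 (3.68% of all tested genes), 310 (1.94%) of them rising in Wt and 277 (1.74%) falling. In 365 genes (2.29%) both nerves changed the same way and Tg less, here called attenuated. Another 378 (2.37%) changed in Tg and were not called in Wt, and 107 (0.671%) changed the same way and more in Tg, here called enhanced. In 161 genes (1.01%) the change was reversed, with 84 (0.527%) that rose in Wt and fell in Tg and 77 (0.483%) that did the opposite. For 10 genes (0.0627%) neither step was called. The scaling matters for these counts. With libraries scaled to their total counts only, the median log2 change of all tested genes moved from -0.02 to -0.24 in Wt and only from -0.01 to -0.04 in Tg, and the median difference from 0.01 to 0.20. With that scaling 2787 genes had the higher and 409 the lower change in Tg, and differences under 0.20 are not read here as a direction.

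**Figure D1:**
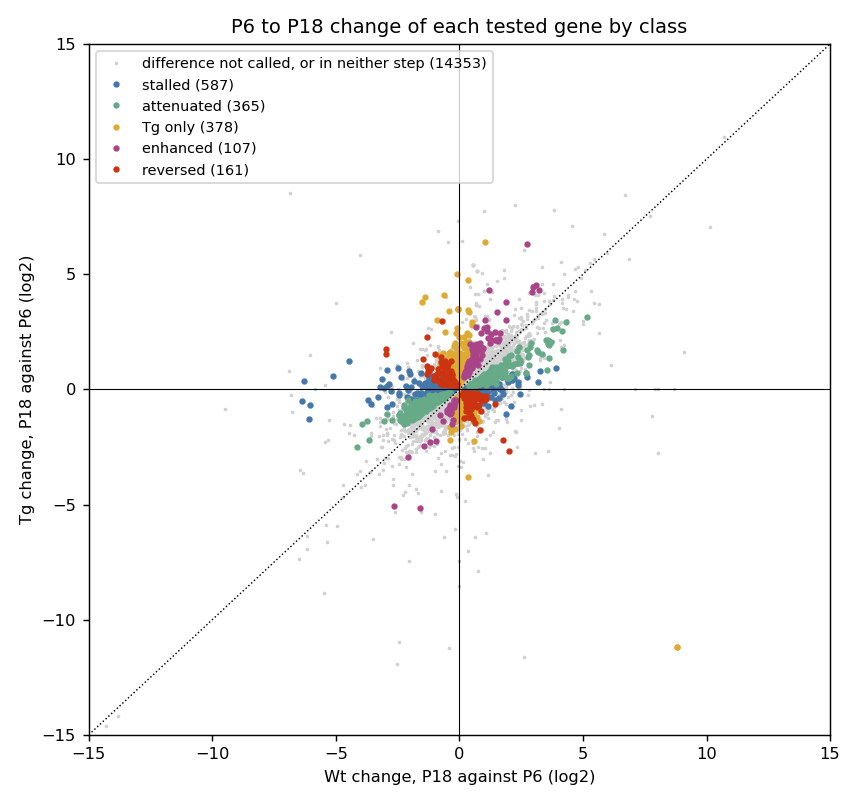
Each point is a tested gene, with its log2 change from P6 to P18 in Wt on the x axis and in Tg on the y axis; the dotted line marks equal changes and colours mark the groups, with their numbers in the legend. The 587 stalled genes have no called change in Tg and lie around the horizontal line at 0, not all of them on it. The 161 reversed genes lie in the upper left and lower right.

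The 5 marker genes were followed through these patterns. Pmp22 was stalled: its change in Tg was -0.01 (standard error 0.07, adjusted p = 0.92), and in Wt 0.98 (difference of changes -0.99, adjusted p = 4.0e-07). At E21 it had 1558 ± 114 in Tg, so that its rise in Tg came between E21 and P6. Ngfr, the low-affinity neurotrophin receptor of immature Schwann cells, had 108, 100.1, 90.9 and 106 at P6 and 217, 184, 199 and 231 at P18. These libraries did not overlap, and the level rose (log2 fold change 1.04, standard error 0.10, adjusted p = 2.2e-08), whereas in Wt it fell from 111 ± 12.7 to 44.7 ± 5.8. At E21 Tg had 368 ± 33.2, so that the Tg level fell to P6 and then rose again.

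Jun encodes a transcription factor that opposes myelin genes and drives the repair state. It had 64.5, 67.7, 56.3 and 57.3 at P6 and 125, 114, 119 and 102 at P18, without overlap (log2 fold change 0.91, standard error 0.11, adjusted p = 6.9e-07). In Wt it fell from 73.4 ± 9.85 to 48.6 ± 9.94, and the difference of changes was 1.50 (adjusted p = 6.2e-07). Nefl, the light neurofilament subunit, had 251, 149, 126 and 195 at P6 and 324, 501, 643 and 599 at P18. The lowest P18 library was above the highest P6 library, and the change was 1.52 in Tg against -2.97 in Wt, where the level dropped from 125 ± 23.2 to 16 ± 5.42. Shh, a secreted hedgehog ligand, had 0.591, 0.497, 0.635 and 0.841 at P6 and 45.6, 30.9, 45.2 and 37.8 at P18 (log2 fold change 5.93, standard error 0.29, adjusted p = 1.3e-12). In Wt at most 2 counts were found in any P6 library, against 9 to 21 in P6 Tg, and 2.99 ± 0.318 normalized CPM at P18. Both genotypes gained Shh, and the P18 level was higher in every Tg library than in any Wt library. The difference of the 2 changes was not called, in the main fit or in any of 24 alternatives. It rests on the P6 Wt level, which is within 3 counts of 0, and for that reason no fold is given for Wt.

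**Figure D2:**
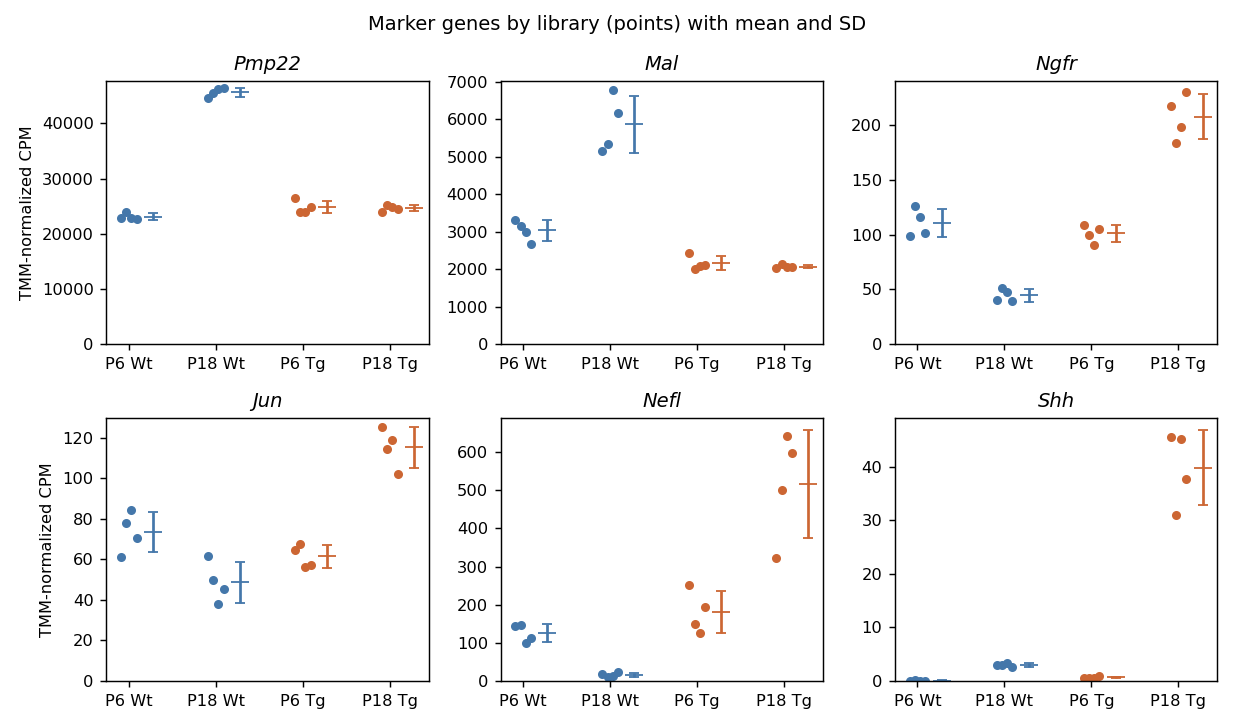
Normalized CPM (y axis) of Pmp22, Mal, Ngfr, Jun, Nefl and Shh in each library (points) of the 4 groups, with the mean and SD beside them. Pmp22 and Mal have no called change in Tg, while both rise in Wt; Ngfr, Jun and Nefl rise in Tg and fall in Wt.

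For compact myelin, the 8 listed genes had a median log2 change of -0.09 in Tg and 0.51 in Wt. In Tg 2 of them rose and 2 fell, against 5 and 1 in Wt, and 5 had a lower change in Tg. Of all tested genes 17.9% rose and 17.9% fell in Tg, 20.5% and 21.3% in Wt, and 4.79% had a lower change in Tg. Without P18 Tg replicate 1 or 4, or P6 Tg replicate 2 or 4, 1 gene of the list rose. Mbp, which joins the inner faces of the membrane, went from 14811, 13670.4, 12062 and 13623 to 11817, 11443, 11103 and 10402. Its Tg change of -0.27 missed the threshold (adjusted p = 0.052) and passed it in 11 of 25 alternatives, with the same sign in all of them, and it differed from the Wt change of 0.41 (difference of changes -0.68, adjusted p = 0.005). Mal, a raft protein of myelin, had 2436, 2013, 2082 and 2112 at P6 and 2033, 2133, 2068 and 2059 at P18, with no called change, and rose in Wt from 3037 ± 278 to 5865 ± 755.

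Other genes listed under compact myelin behaved differently. Pmp2, a fatty acid carrier, went from 1824, 1593, 1863 and 1547 to 2447, 2230.2, 2229.5 and 2382 (log2 fold change 0.44, standard error 0.16, adjusted p = 0.03), less than in Wt (1.35, difference of changes -0.90, adjusted p = 0.01). The Tg rise lost its call when P18 Tg replicate 1 or 4 or P6 Tg replicate 2 or 4 was left out, with changes of 0.40 to 0.43. Cldn11, a tight junction protein, rose in Tg (log2 fold change 0.61, standard error 0.15, adjusted p = 0.0029). Its difference from Wt was 0.69, lost the call in 16 of 24 alternatives and ran from 0.58 to 0.87 over them. Mpzl1, a cell surface glycoprotein, fell by 0.86 in Tg and by 0.72 in Wt, and that difference was not called.

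Genes of the non-compact regions of myelin and of its contacts were called more often as rises than as falls. Of 22 tested, 10 rose and 3 fell in Tg, against 12 and 5 in Wt (of all tested genes, 17.9% each way in Tg and 20.5% and 21.3% in Wt; 5 fell with the Tg libraries only), and for 10 genes both steps were called the same way with no called difference. Drp2, which anchors the outer membrane to the basal lamina with periaxin, went from 461, 419, 409 and 409 to 1038, 1117, 1080.0 and 1016. It was all but absent at E21 (3.7 ± 0.986), and its rise after P6 (log2 fold change 1.32, standard error 0.10, adjusted p = 5.4e-10) was smaller than in Wt (1.86, difference of changes -0.54, adjusted p = 0.013). With total counts only, this difference was -0.35 and not called. Ndrg1, a trafficking protein whose loss causes another hereditary neuropathy, went from 919.8, 739, 782 and 741 to 1688, 1944, 1891 and 1838, with a change of 1.21 in Tg and 1.22 in Wt. Ncmap, a myelin membrane protein, rose by 1.04 and 0.98, and Gjb1, the gap junction protein connexin 32, by 0.66 and 0.80. For these 3 genes the difference from Wt was not called, with adjusted p-values of 0.98, 0.93 and 0.71. Lgi4, a secreted adhesion protein that Schwann cells need to sort axons, went from 254, 286, 243 and 288 to 618, 631, 654 and 606 and rose more than in Wt (1.23 against 0.68, difference of changes 0.54, adjusted p = 0.0028).

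For other contact genes the Tg change was lower than in Wt, not called, or a fall. Nfasc, which makes both the glial and the axonal neurofascins beside the node, had a change of 0.19 in Tg (adjusted p = 0.11, called with DESeq2, with the 8 Tg libraries only and with the P6 and P18 libraries only) and 0.75 in Wt (difference of changes -0.56, adjusted p = 0.0049). Cd9, a tetraspanin of the myelin surface, rose by 0.52 in Tg and more in Wt, from 1563 ± 77.5 to 3123 ± 182 (difference of changes -0.48, adjusted p = 5.2e-04). Prx, the periaxin gene, had a change of 0.04 in Tg and 0.44 in Wt, but that difference missed the threshold (adjusted p = 0.067) and passed it without P18 Wt replicate 3 (-0.48), with DESeq2 (-0.41) and with a term for Y-linked reads (-0.47). Gjc3, a connexin, fell in both, from 143, 142, 139 and 151 to 58, 60.6, 66.3 and 64.6 in Tg, with changes of -1.20 and -1.57, a difference that was called only with total counts or without P18 Wt replicate 3 (0.49). Cnp, an enzyme of uncompacted myelin, fell by 0.30 in Tg and by 0.40 in Wt.

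Regulators of myelination are transcription factors and receptors. Of 19 tested, 1 rose and 5 fell in Tg, against 3 and 11 in Wt, and 6 were stalled, a class that holds 3.68% of all tested genes. The shares of all tested genes that rose and fell were 17.9% each in Tg, and 20.5% and 21.3% in Wt. The gene that rose was Egr2, the master regulator of myelin genes, which went from 243, 241, 224 and 207 to 328, 312, 420.2 and 396 without overlap (log2 fold change 0.67, standard error 0.14, adjusted p = 7.8e-04). Its Wt change was 0.67, and the difference was -0.01 (adjusted p = 0.99). Sox10, its partner, had a change of -0.06 in Tg and -0.56 in Wt, and this difference was not called (adjusted p = 0.14) except with total counts only. Pou3f2, a factor of the promyelinating stage, had 17.5, 18.7, 16.9 and 19.7 at P6 and 22.2, 19.5, 18.6 and 17.9 at P18 in overlapping ranges, whereas it fell in Wt from 16 ± 1.89 to 6.72 ± 2.07 (difference of changes 1.34, adjusted p = 1.8e-04). Tead1, a partner of the YAP coactivators, was likewise stalled, at 0.14 in Tg against -0.91 in Wt. Erbb3, the neuregulin receptor of Schwann cells, fell in both, by 0.43 in Tg and by 0.84 in Wt (difference of changes 0.42, adjusted p = 0.0022), and its partner Erbb2 had -0.02 and -0.45 (difference of changes 0.43, adjusted p = 0.0064). Adgrg6, an adhesion receptor needed to start myelination, fell in Tg by 0.45 and had a Wt change of 0.00. That difference of -0.455 lost its call with total counts only (-0.27) and with a term for Y-linked reads (-0.39).

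Genes of immature and repair Schwann cells rose more often than they fell in Tg. Of 26 tested, 14 rose and 3 fell in Tg, with a median of 0.51 against -0.01 for all tested genes, of which 17.9% rose and 17.9% fell. In Wt 4 rose and 11 fell, with a median of -0.33, beside 20.5% and 21.3% of all tested genes. Without P18 Tg replicate 4, or with the P6 and P18 libraries only, 1 gene fell in Tg. The difference was called for 14, all with the higher change in Tg, where 5.29% of all tested genes were called in that direction. They were 5 reversed, 4 changed in Tg only, 3 stalled, 1 attenuated and 1 enhanced. The markers Ngfr, Jun and Shh belong to this list, so its count is not separate from theirs.

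Reversed, besides Ngfr and Jun, were 3 genes. Fos, an immediate early gene, went from 20.2, 24.2, 16 and 16.8 to 43.1, 33.6, 40.8 and 30 and fell in Wt from 17.3 ± 4.81 to 7.86 ± 2.19 (difference of changes 2.07, adjusted p = 4.8e-05). Egr1, an immediate early factor of non-myelinating Schwann cells, went from 28.2, 33.4, 27 and 30 to 64.6, 48.6, 71.6 and 66.3, with changes of 1.08 in Tg and -0.47 in Wt. Tnc, a matrix glycoprotein of developing and injured nerve, went from 161, 167, 179.5 and 167 to 263, 207, 243 and 244 (0.50), while Wt fell by 0.95. In all 3 the Tg libraries of both ages were fully apart.

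Runx2, Atf3, Stat3 and L1cam changed in Tg only. Runx2, a transcription factor of repair cells, had 1.58, 2.48, 2.66 and 2.4 at P6 and 23.9, 23.3, 25.8 and 28.9 at P18 (log2 fold change 3.47, standard error 0.24, adjusted p = 2.0e-10), while Wt had 2.97 ± 0.368 and 3.64 ± 1.75. At E21 Tg had 1.61 ± 0.351, so the P18 level was above both earlier ages. Atf3, a stress factor, went from 20.7, 26.9, 22.9 and 22.9 to 56.7, 59, 62.2 and 60.2 (1.35 against 0.17 in Wt, difference of changes 1.18, adjusted p = 3.0e-06). Stat3, a signalling factor that keeps repair cells alive, went from 118, 119, 122 and 119 to 248, 239, 254 and 241 (1.04 against 0.16, difference of changes 0.88, adjusted p = 1.0e-04). L1cam, an adhesion molecule of non-myelinating cells, rose by 0.51 in Tg, with -0.09 in Wt.

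Sox2, Ccnd1 and Id2 were stalled: they fell in Wt and were not called in Tg. In the fit on the 8 Tg libraries only, Sox2 (0.31) and Ccnd1 (0.22) were called as rises in Tg. Sox2, which holds Schwann cells in the immature state, had 33.2, 36.3, 32.2 and 25.2 at P6 and 41.8, 35.1, 42 and 38.4 at P18, and Wt fell from 29.6 ± 3.58 to 13.7 ± 2.6 (difference of changes 1.43, adjusted p = 5.5e-05). Ccnd1, cyclin D1, had 337, 372, 331 and 333 and 404, 373, 439 and 377 in Tg (change 0.21, adjusted p = 0.075, called without P18 Wt replicate 4 at 0.22), and Wt fell by 1.01 (difference of changes 1.23, adjusted p = 1.0e-06). Id2, an inhibitor of differentiation, had -0.15 in Tg and -0.84 in Wt, and this difference lost its call in 4 of 16 fits that left out 1 library each (without P18 Tg replicate 1, P18 Wt replicate 3 or 4, or P6 Wt replicate 3), with differences of 0.59 to 0.64. Gfap, the intermediate filament of non-myelinating Schwann cells, rose in both, from 5.51, 4.51, 2.02 and 3.28 to 82.4, 92.8, 96.2 and 77.3 in Tg, and more so than in Wt (4.51 against 3.10, difference of changes 1.41, adjusted p = 0.0099). Ncam1 and Id1 moved the same way in both genotypes. Ncam1, another adhesion molecule, fell by 0.33 in Tg and by 0.61 in Wt (a difference called without P6 Wt replicate 4, at 0.34, and with total counts only), and Id1 rose by 1.15 and 1.06.

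Among 20 tested trophic factors, 13 rose and 4 fell in Tg, with a median of 0.90. In Wt 5 rose and 1 fell, with a median of 0.13. Of all tested genes 17.9% rose and 17.9% fell in Tg, and 20.5% rose and 21.3% fell in Wt. The falls in Tg were 2 without P18 Tg replicate 4 or P6 Tg replicate 3, with the P6 and P18 libraries only and with no count filter. Of the tested factors, 7 changed in Tg only, a class of 2.37% of all tested genes. Nrg1, a growth factor that controls myelination, went from 5.05, 3.34, 4.27 and 3.2 to 24.3, 17.6, 19.4 and 19.8 (log2 fold change 2.36, standard error 0.17, adjusted p = 2.6e-10), and Wt had 2.29 ± 0.305 and 3.05 ± 0.433. Which cells of the nerve held this RNA was not tested. Btc, an EGF-family ligand, went from 2.49, 1.81, 2.6 and 1.72 to 22.1, 19.9, 24.3 and 21.6 (3.36 against 0.37 in Wt, difference of changes 2.99, adjusted p = 1.9e-04). Clcf1, a cytokine of the CNTF family, went from 6.7, 7.86, 7.45 and 7.81 to 21.9, 21, 23.7 and 21.9 (1.57 against 0.02, difference of changes 1.54, adjusted p = 0.0015). In all 3 every P18 Tg library exceeded every P6 Tg library.

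Ucn2, a peptide hormone of the CRF family, had 0.263, 0.361, 0.924 and 0.36 at P6 and 7.8, 7.12, 9.02 and 8.63 at P18, and Wt 0.382 ± 0.232 and 0.249 ± 0.184 (difference of changes 4.72, adjusted p = 8.5e-05). Cntf, a neurotrophic cytokine made by myelinating Schwann cells, rose from 19.8, 15.5, 18.4 and 15.3 to 127, 148, 138 and 139, less than in Wt, where it reached 407 ± 42.9 (difference of changes -0.88, adjusted p = 1.8e-04). Igf2, a fetal growth factor, fell in Tg from 1163, 967, 1020.3 and 1040.4 to 656, 663, 546 and 662 (-0.73), with a Wt change of 0.13. Dhh, the hedgehog ligand by which Schwann cells organise the perineurium, rose by 0.59 in Tg and 0.30 in Wt, and that difference was not called except with total counts only.

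Cholesterol synthesis fell nearly as a whole. Of 22 tested enzyme genes, 20 fell and 0 rose in Tg, where 17.9% of all tested genes fell. DESeq2 also called 20 falls and 0 rises, and 0 rose at an unadjusted p under 0.05, since every fitted change was below 0. Their median change was -0.96, over a range of -1.50 to -0.01. In Wt 12 rose and 2 fell, with a median of 0.26, beside 20.5% and 21.3% of all tested genes. The difference was called for 19, all lower in Tg, and 11 of these were reversed, beside 4.79% and 1.01% of all tested genes. Hmgcs1, which makes HMG-CoA early in the pathway, went from 1499.9, 1800.1, 1736 and 1688 at P6 to 742, 723, 633 and 697 at P18 (log2 fold change -1.27, standard error 0.09, adjusted p = 6.0e-10), and Wt rose from 2156 ± 209 to 3193 ± 468. Between E21 (338 ± 21.3) and P6 it had risen in Tg, so that the Tg level first rose and then fell. Lss, which closes the sterol rings, went from 274, 412, 363 and 429 to 186, 153, 156 and 147 (-1.20 against 0.40 in Wt, difference of changes -1.60, adjusted p = 4.0e-07). Idi1, an isomerase of the isoprene steps, went from 312, 399, 426 and 340.0 to 176, 153, 155 and 161 (-1.20 against 0.36, difference of changes -1.56, adjusted p = 1.0e-05).

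The promoters of these 3 genes are shown because they had the largest differences from Wt among the 22 genes. Sequences are from RefSeq, build GRCr8, from 250 bases before to 50 bases after the start, 5′ to 3′ on the gene's strand. Capitals mark CCAAT or its reverse complement ATTGG, the letters of the CCAAT box, which were searched on both strands. The entries lie at chr2:53382054-53382353 on the plus strand (Hmgcs1), chr20:12118181-12118480 on the minus strand (Lss) and chr17:66547475-66547774 on the minus strand (Idi1).
Hmgcs1: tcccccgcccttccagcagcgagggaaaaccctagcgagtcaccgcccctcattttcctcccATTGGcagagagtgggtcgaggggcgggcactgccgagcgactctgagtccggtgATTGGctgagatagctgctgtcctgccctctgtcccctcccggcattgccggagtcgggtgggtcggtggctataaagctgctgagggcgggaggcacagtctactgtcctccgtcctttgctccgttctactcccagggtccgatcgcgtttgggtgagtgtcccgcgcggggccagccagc
Lss: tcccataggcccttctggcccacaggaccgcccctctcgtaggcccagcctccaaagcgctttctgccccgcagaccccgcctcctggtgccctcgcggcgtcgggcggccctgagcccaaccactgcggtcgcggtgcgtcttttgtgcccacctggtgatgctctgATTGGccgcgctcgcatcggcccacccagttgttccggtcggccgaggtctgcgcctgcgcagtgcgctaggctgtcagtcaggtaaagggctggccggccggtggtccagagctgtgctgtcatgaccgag
Idi1: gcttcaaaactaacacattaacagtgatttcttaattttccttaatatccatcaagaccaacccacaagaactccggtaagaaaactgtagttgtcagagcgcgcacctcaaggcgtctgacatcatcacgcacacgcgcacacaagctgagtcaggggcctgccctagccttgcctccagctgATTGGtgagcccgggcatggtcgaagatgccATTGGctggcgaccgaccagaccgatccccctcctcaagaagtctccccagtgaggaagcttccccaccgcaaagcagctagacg
Of the 22 genes, 17 had an entry by symbol, and 14 of these (82.4%) held CCAAT, against 37.5% of all 33469 entries of that length and 36.6% of the entries of tested genes. GGGCGG, the GC box, was in 14 of 17 (82.4%) against 33.1% of all entries and 59.0% of those of tested genes. TCACNCCAC, a form of the sterol regulatory element, was in 0 of 17 and in 1.12% of all entries. Cell cycle promoters held CCAAT in 15 of 20 (75.0%). These are matches of letters in a fixed window and not binding sites.

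The other enzymes differed in their Wt change. Sqle, which oxidises squalene, fell from 186, 228, 230.1 and 221 to 98.3, 86.7, 87.8 and 91.8 (-1.25 against -0.04 in Wt), and Acat2, which makes acetoacetyl-CoA at the entry of the pathway, fell by 1.35 with 0.04 in Wt. Hsd17b7 had the largest fall of the list, from 66.3, 79.2, 88.7 and 80.3 to 28.3, 27, 28 and 27.7 (-1.50), and also fell in Wt by 0.31. Cyp51, Nsdhl and Ebp, enzymes of the late sterol steps, were reversed, with Tg changes of -0.86, -0.68 and -0.27 and Wt changes of 0.47, 0.79 and 0.74. The 2 genes not called in Tg were Pmvk, a kinase of the mevalonate steps (-0.01 against 0.63 in Wt, difference of changes -0.64, adjusted p = 3.5e-04), and Ggps1 (-0.09), whose product feeds a side branch. P6 Tg replicate 1 was the lowest P6 library for Hmgcs1, Lss, Idi1, Sqle and Acat2, and in each of them it stayed above every P18 Tg library. The count of genes that fell was 20 in each of the 16 fits that left out 1 library each.

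**Figure D3:**
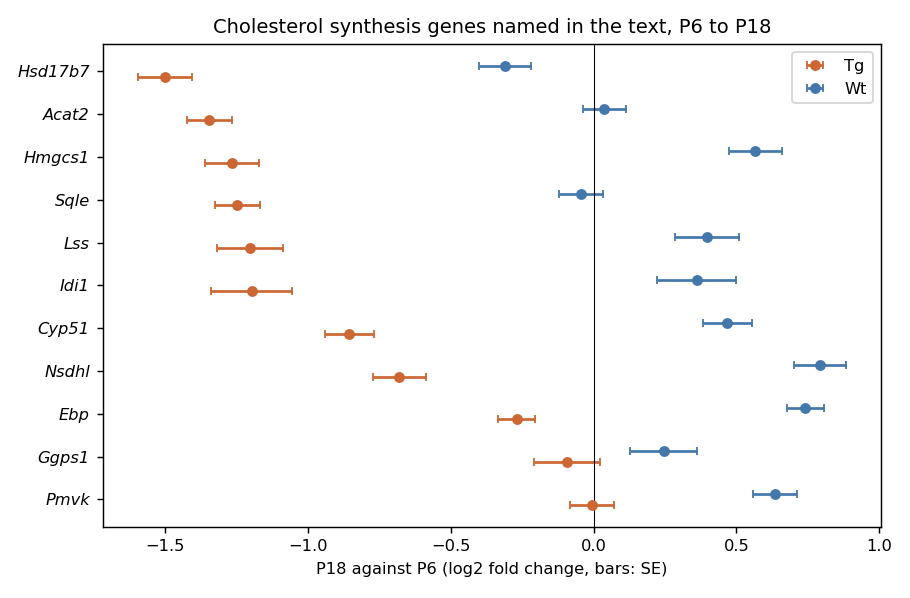
Log2 change from P6 to P18 (x axis, bars are standard errors) of the 11 cholesterol synthesis genes named here in Tg and Wt, ordered by the Tg change. The Tg points lie below 0, from -1.50 to -0.01, and of the Wt points those of Hsd17b7 and Sqle lie below 0 and the others above it.

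Genes that sense, take up and export cholesterol formed another list. Of 20 tested, 11 rose and 5 fell in Tg, against 11 and 2 in Wt. Of all tested genes 17.9% rose and 17.9% fell in Tg, and 20.5% rose and 21.3% fell in Wt. Insig1, a sterol sensor, went from 179, 273, 272 and 265 to 115, 109, 91.1 and 105 (-1.24), and Stard4, a sterol carrier, fell by 0.84. Neither was called in Wt, with changes of 0.20 and 0.13, and both differences were called. Srebf2, the transcription factor that activates this pathway, had a change of -0.14 in Tg (adjusted p = 0.18, called without P18 Tg replicate 1 at -0.21) and -0.04 in Wt. Abca1, the cholesterol efflux pump, went from 174, 196, 216 and 184 to 414, 400.0, 472 and 487 (log2 fold change 1.20, standard error 0.09, adjusted p = 9.9e-10) and fell in Wt from 217 ± 12.1 to 129.8 ± 15.9, a reversal. Apod, a lipocalin of injured nerve, went from 604, 510.4, 631 and 630.0 to 4702, 5754, 6817 and 6808, and Apoe, a lipid carrier, from 60.9, 82.8, 67.9 and 84.4 to 661, 619.7, 579.9 and 544. Both also rose in Wt and less (3.34 against 1.52 and 3.02 against 1.88, adjusted p = 2.9e-07 and 0.0043 for the differences). Nr1h3, the sterol receptor LXR alpha, rose in both (2.01 and 1.84) with no called difference.

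In fatty acid synthesis 15 of 24 genes fell and 3 rose in Tg, whereas 3 fell and 13 rose in Wt. The medians were -0.35 and 0.32, and 16 genes had the lower change in Tg. Of all tested genes 17.9% fell and 17.9% rose in Tg, 21.3% and 20.5% in Wt, and 4.79% had the lower change in Tg. Fasn, fatty acid synthase, went from 531, 683, 555 and 690.2 to 435, 359, 372 and 347 (-0.70 against 0.24 in Wt, difference of changes -0.95, adjusted p = 9.4e-05). Acly, which makes cytosolic acetyl-CoA, fell by 0.56 with 0.03 in Wt. Acss2, which makes it from acetate, was reversed, from 67.7, 81.6, 79 and 85.7 to 59.3, 55.8, 57 and 59.1 in Tg (-0.44) and 0.98 in Wt. Fads2, a desaturase, fell more than in Wt (-1.35 against -0.26). Scd2, the abundant stearoyl-CoA desaturase of myelinating cells, was stalled, with 5619, 6249, 5792 and 6272 at P6 and 6147, 5697, 6381 and 6181 at P18 while Wt rose to 13456 ± 386 (0.91).

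Lipid genes that fat cells also express were less even between libraries. Scd1, another desaturase, had 42.3, 155, 161 and 147 at P6 and 51.1, 18.6, 17.5 and 24.3 at P18, so that P6 replicate 1 lay within the P18 range (log2 fold change -2.19, standard error 0.38, adjusted p = 8.0e-05). Lpl, lipoprotein lipase, had 150.1, 186, 240.2 and 188 and 183, 127, 79.6 and 99.6, which overlap, and its fall (log2 fold change -0.65, standard error 0.21, adjusted p = 0.02) lost the call without P18 Tg replicate 3 or 4 or P6 Tg replicate 3 (-0.49 to -0.56). Both rose in Wt, to 337 ± 88.6 and 517 ± 92.8. Adipoq, the fat cell hormone adiponectin, had 71.7, 116, 142 and 123 at P6 and 158, 118, 42.6 and 61.8 at P18 in Tg, and rose in Wt from 72.1 ± 41.7 to 142 ± 33.3. The 13 fat cell markers in the table summed to 381 to 587 normalized CPM in P6 Tg, 238 to 781 in P18 Tg, 219 to 623 in P6 Wt and 507 to 775 in P18 Wt, with 2 of 12 tested rising in Tg and 7 in Wt. Without P18 Tg replicate 3, 4 of them rose in Tg. Of all tested genes 17.9% rose in Tg and 20.5% in Wt. In edgeR's test 0 fell in Tg and 0 differed from Wt (5 differed at an unadjusted p under 0.05, and 3 changed in Tg in either direction), and DESeq2 also gave 0 and 0. There were 2 falls and 2 lower differences without P18 Tg replicate 1, and 1 fall and 6 lower differences without P6 Wt replicate 4. Their part in the results for Scd1 and Lpl was not tested.

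Galactolipids are the other main lipids of myelin. Ugt8, which makes galactosylceramide, went from 1422, 1221, 1353 and 1160.2 to 931, 984, 924 and 945 (-0.45) and rose by 0.93 in Wt, a reversal (difference of changes -1.38, adjusted p = 1.3e-06). Cers2, a ceramide synthase for very long chains, rose in both and less in Tg (0.22 against 0.68, difference of changes -0.46, adjusted p = 4.8e-05). St3gal5, which starts ganglioside synthesis, fell in both and less in Tg (-0.70 against -1.30, difference of changes 0.60, adjusted p = 7.5e-04). Over the 21 sphingolipid genes 6 rose and 5 fell in Tg, against 13 and 3 in Wt, and 7 had a lower change in Tg (4 with total counts only), where 4.79% of all tested genes did. For phospholipid synthesis 6 of 29 rose and 7 fell, shares near the 17.9% of all tested genes in either direction (3 rises without P6 Tg replicate 3), with the largest rise in Lpin3, a lipin phosphatase (1.62 against 1.16 in Wt). In Wt 11 rose and 4 fell, beside 20.5% and 21.3% of all tested genes. A lower change in Tg was called for 8 of the 29. These were 5 without P18 Tg replicate 1, 2 or 4 or P6 Wt replicate 3, or with the P6 and P18 libraries only, 4 without P6 Tg replicate 3 or with a term for Y-linked reads, and 0 with total counts only. A higher change in Tg was called for 1 of the 29, beside 5.29% of all tested genes. With total counts only it was called for 7 of them, where 2787 of all tested genes had the higher change. The direction for this list thus depends on the scaling. In fatty acid oxidation 4 of 24 rose and 2 fell, both below the shares of all tested genes, with 4 falls without P18 Wt replicate 3, with DESeq2, with the Tg libraries only, with the P6 and P18 libraries only and with total counts only.

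Cell cycle genes fell in Tg, and most of them fell less than in Wt. All 25 tested genes fell in Tg, with a median of -1.01, and 24 fell in Wt with a median of -1.73, where 17.9% and 21.3% of all tested genes fell. The difference was called for 19, all attenuated, beside 5.29% of all tested genes with a higher change in Tg and 2.29% attenuated. Ccna2, cyclin A2, went from 35, 43.7, 48.5 and 36.1 to 14.3, 14.1, 15.4 and 14 in Tg (log2 fold change -1.50, standard error 0.11, adjusted p = 4.6e-10) and from 31.8 ± 2.75 to 6.55 ± 1.36 in Wt (difference of changes 0.76, adjusted p = 0.0032). Top2a, a topoisomerase of dividing cells, went from 129, 161, 163 and 146 to 54.7, 52.5, 56.4 and 52.2, while Wt reached 28.2 ± 1.98. Mki67, the proliferation marker, went from 124, 154, 153 and 140.3 to 57.1, 62.5, 60.8 and 57.5 (-1.26 against -1.94), and Cdk1, the mitotic kinase, fell by 1.13 against 1.99 in Wt. The P18 Tg libraries lay between those of P6 Tg and P18 Wt for each of these 4 genes. Aurka had the smallest fall (-0.24, adjusted p = 0.021), which was not called in 4 of 25 alternatives, among them the fits without P18 Tg replicate 1 or 4 or P6 Tg replicate 3 (-0.21 to -0.23).

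Fetal and imprinted growth genes fell in both genotypes. Of 14 tested, 12 fell and 1 rose in Tg, and 12 fell in Wt, with medians of -1.11 and -1.15, beside falls in 17.9% and 21.3% of all tested genes. Dlk1, an imprinted NOTCH-pathway ligand, went from 133, 95.1, 107 and 107 to 5.14, 5.23, 3.94 and 2.78 (-4.69 against -4.73 in Wt, adjusted p = 0.97 for the difference). Cdkn1c, a growth inhibitor, fell by 1.66 and 1.60, and Igf2bp3, a fetal RNA-binding protein, by 2.46 and 2.16. Mest and Peg3, both imprinted, fell more in Tg than in Wt (-1.70 against -1.13 for Mest, and from 426, 382, 429.5 and 358 to 181, 224, 185 and 210.2 for Peg3, difference of changes -0.49, adjusted p = 0.0076). With total counts only the difference for Peg3 was -0.30 and not called. Gpc3, a proteoglycan, was the one that rose (0.38), from 710.4, 554, 681 and 632 to 651, 821, 898 and 989, with overlap.

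**Figure D4:**
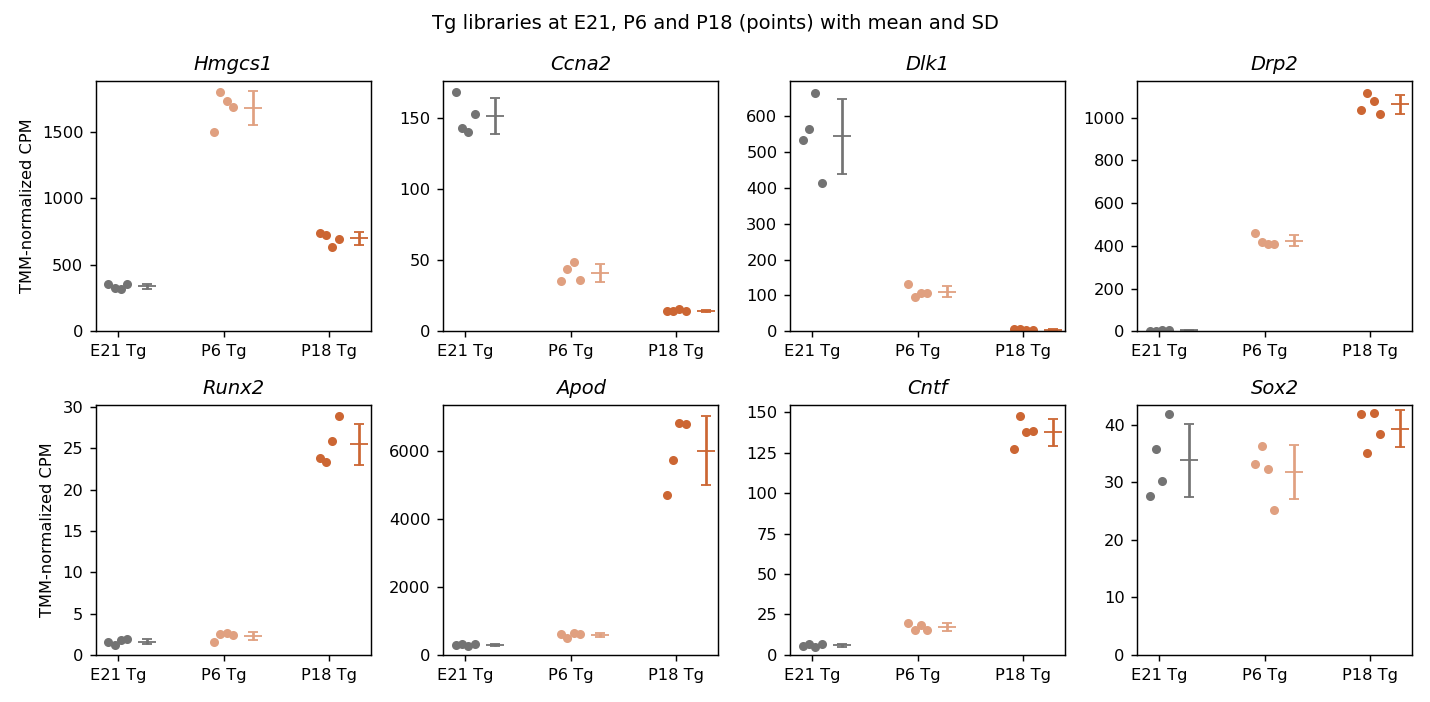
Normalized CPM (y axis) of 8 genes in the Tg libraries at E21, P6 and P18 (points), with mean and SD beside them. Hmgcs1 peaks at P6; Ccna2 and Dlk1 fall at both steps; Drp2, Cntf, Runx2 and Apod are highest at P18; Sox2 lies between 25.2 and 42.0.

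The basal lamina, which Schwann cells lay down and need for myelination, was followed through its matrix proteins and their receptors. Of 20 genes 7 rose and 8 fell in Tg, against 7 and 6 in Wt. Of all tested genes 17.9% changed each way in Tg, and 20.5% rose and 21.3% fell in Wt. For 11 of the 20 genes both steps were called the same way with no called difference. Itgb4, the laminin receptor subunit of mature myelin, went from 404, 419, 362 and 399.6 to 1032, 1029, 1112 and 992 (1.39 against 1.22 in Wt). Lama5 and Lamb2, laminin chains, rose by 1.06 and 0.96 against 1.22 and 0.89, and Lama4, the chain of immature nerve, fell by 0.48 against 0.55. Itga7, another laminin receptor subunit, rose in Tg and was not called in Wt, from 310.0, 320.2, 300.0 and 325 to 521, 481, 511 and 465 (0.66, difference of changes 0.66, adjusted p = 2.3e-04).

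Connective tissue genes showed no called difference. Of the 18 tested fibroblast and collagen genes 7 rose and 2 fell in Tg, 11 rose and 3 fell in Wt, and 0 differed between the genotypes in edgeR's test (3 at an unadjusted p under 0.05) and 0 with DESeq2, against 1 with the P6 and P18 libraries only and 2 with total counts only. Without P18 Tg replicate 4 or without P6 Tg replicate 2, 4 of them rose in Tg. Of all tested genes 17.9% rose and 17.9% fell in Tg, and 20.5% rose and 21.3% fell in Wt. Dcn, the proteoglycan decorin, went from 948, 769.9, 959.9 and 863 to 1978, 2598, 2516 and 2887 (1.49 against 1.59 in Wt), and Postn, a matrix protein of growing tissue, from 1580.3, 1379, 1822 and 1578 to 696, 757, 444 and 703 (-1.29 against -0.75). In the perineurium, the cell layer that seals the nerve bundle, 7 of 9 markers rose and 1 fell in Tg (0 fell without P18 Tg replicate 3, P6 Tg replicate 1 or P6 Tg replicate 2), against 5 and 2 in Wt, beside 17.9% of all tested genes each way in Tg. Slc2a1, its glucose transporter, went from 44.4, 37.9, 38.8 and 35.6 to 158, 146, 155 and 152 (1.97 against 2.02), and Cldn1, its tight junction protein, from 123, 85.8, 113 and 98.6 to 199, 233, 250.1 and 293 (1.22 against 1.15).

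Among axonal and neuronal genes, the neurofilament subunits went different ways. Of 16 tested, 2 rose and 4 fell in Tg, where 35.8% of all tested genes were called in either direction. Besides Nefl, Nefm, the medium subunit, had 218, 140.1, 116 and 186 at P6 and 144, 206, 286 and 252 at P18 while Wt fell from 111 ± 32.9 to 12.7 ± 1.35 (difference of changes 3.56, adjusted p = 7.0e-08). Its Tg change of 0.43 was 0.59 and called without P18 Tg replicate 1 or without P6 Tg replicate 1. Nefh, the heavy subunit, fell in both (-1.12 and -0.85), as did Scn9a, a sodium channel (-1.10 and -1.45). Prph, peripherin, fell in Tg by 1.04, with -0.34 in Wt and no called difference. In the unfolded protein response 5 of 19 genes rose and 2 fell, again beside 35.8% of all tested genes called. The rises were 3 without P18 Tg replicate 2 or 4, and the falls 1 without P18 Tg replicate 1 or 2 or P6 Tg replicate 3. Ddit3, its apoptotic factor, went from 8.99, 8.4, 7.62 and 9.05 to 14.5, 11.4, 14 and 14.1 (0.66 against 0.08 in Wt, difference of changes 0.59, adjusted p = 0.018). With a term for Y-linked reads that difference was 0.52 and not called. Herpud1, which helps degrade misfolded proteins, rose in both (0.68 and 0.77) with no called difference.

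Markers of other cells in the nerve were uneven. For macrophages 5 of 18 markers rose and 4 fell in Tg, with 2 falls without P6 Tg replicate 3, where 17.9% of all tested genes rose and 17.9% fell. In Wt 2 rose and 5 fell, beside 20.5% and 21.3% of all tested genes, and the medians were 0.08 in Tg and -0.18 in Wt. A higher change in Tg was called for 3 of the 18, beside 5.29% of all tested genes. With a term for Y-linked reads, and in several fits that left out 1 library, it was called for 1. The summed level of the markers was 374 to 566 normalized CPM in P6 Tg and 609 to 727 in P18 Tg, against 367 to 492 and 389 to 485 in Wt. The sums include Lyz2, whose values follow. Lyz2, lysozyme, whose difference from Wt lost its call in 10 of 24 alternatives, went from 84.3, 96.2, 128 and 148 to 227, 317, 282 and 312, C1qa, a complement subunit, from 21.1, 24.6, 23.5 and 27.8 to 43.6, 39.4, 36.3 and 40.4, while Adgre1, the F4/80 antigen, went from 13.5, 21.9, 26.7 and 32.5 to 13.2, 14.6, 11.6 and 13.8. Trem2, a lipid receptor of macrophages, rose in Tg (0.76) and fell in Wt (-0.66), and the Tg call was lost without P6 Tg replicate 1 (0.62). Abca1, Apoe and Lgals3 are also expressed by macrophages, and the part of these cells in their rise was not tested. Lgals3, a lectin of phagocytic cells, went from 59.2, 64.3, 63 and 57.7 to 213, 166, 193 and 179 (1.62 against 0.53 in Wt, difference of changes 1.09, adjusted p = 4.1e-05). Spp1, osteopontin, rose from 19.2, 13.5, 17.4 and 15.8 to 91.1, 109, 107 and 79.4 and less than in Wt (2.56 against 4.15, difference of changes -1.59, adjusted p = 1.9e-04).

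Mast cell proteases fell, Cpa3 from 64.1, 101, 145 and 118 to 44.5, 45.3, 27.5 and 43.1 and Cma1 from 59.9, 92.1, 100.3 and 109 to 36.7, 37.7, 31.4 and 32.8. The differences from Wt were not called, except that of Cpa3 with the P6 and P18 libraries only (-1.12). Kdr, the VEGF receptor of blood vessels, went from 76.1, 86, 77.2 and 86.6 to 52.2, 48.1, 38.3 and 36.7 (-0.90 against -0.03 in Wt, difference of changes -0.87, adjusted p = 8.3e-04), while Cldn5, the vascular tight junction protein, rose from 18.9, 12.6, 10.6 and 14.1 to 61.4, 57.6, 41.8 and 43.9 (1.86 against 1.90). Over the 11 vessel markers 2 rose and 4 fell in Tg, beside 17.9% of all tested genes in each direction. In Wt 4 rose and 0 fell, beside 20.5% and 21.3% of all tested genes. A lower change in Tg was called for 2 of the 11, beside 4.79% of all tested genes. It was called for 1 with total counts only, and without P18 Tg replicate 3 or 4 or P18 Wt replicate 2 or 4. The same held without P6 Tg replicate 1 or 4 or P6 Wt replicate 2 or 3. Skeletal muscle markers summed to at most 168 normalized CPM in any Tg library of these ages, and edgeR's test called 0 of 14 (0 at an unadjusted p under 0.05), against 1 with DESeq2, 4 with the P6 and P18 libraries only and 5 with the Tg libraries only. Of 7 red cell genes 3 fell in Tg, 7 without P18 Tg replicate 3, and 6 in Wt, beside 17.9% and 21.3% of all tested genes.

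**Figure D5:**
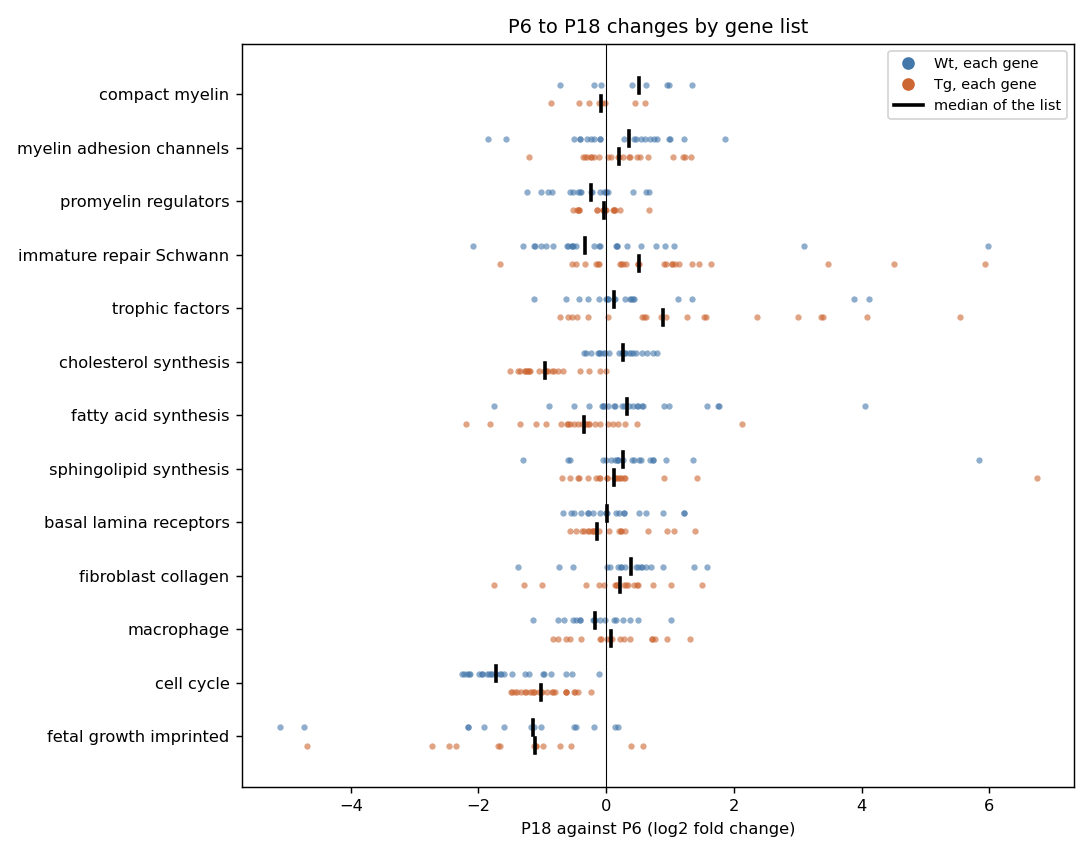
Log2 changes from P6 to P18 (x axis) of the genes of 13 lists in Wt and Tg (points), with the median of each list as a black bar. Cholesterol synthesis and cell cycle lie below 0 in Tg, with medians of -0.96 and -1.01, and the repair and trophic lists have Tg medians of 0.51 and 0.90.

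Over all genes with a mean of at least 50 normalized counts, several of the largest rises in Tg were shared with Wt. Myoc, myocilin, a secreted glycoprotein of nerve and eye, had 0.525, 0.135, 0.173 and 0.0801 at P6 and 279, 345, 558 and 478 at P18, and Wt reached 369.6 ± 79.2. Aldh1a1, a retinaldehyde dehydrogenase, went from 2.76, 2.48, 3.87 and 2.68 to 109.7, 166, 149 and 164 (5.65 against 5.45 in Wt), and Cpxm2, a carboxypeptidase-like protein, rose by 5.22 against 4.66. Cxcl14, a chemokine, was different: it went from 2.23, 2.3, 3.06 and 3 to 226, 157, 261 and 202 in Tg and only to 8.18 ± 1.98 in Wt (6.31 against 2.73, difference of changes 3.58, adjusted p = 3.9e-07). Large falls were shared too. Epyc, a small proteoglycan, went from 62.7, 89.8, 104 and 89.5 to 1.69, 1.32, 1.31 and 1.46 (-5.91 against -5.41), and Prnd, a relative of the prion protein, fell by 4.25 against 3.99. Of the 10 largest rises 3 were copies of the 5.8S ribosomal RNA gene, highest in P18 Tg replicate 4, and among the falls LOC100360791, LOC100362027 and Rps27a are rows whose reads can be divided among near-identical copies, so these 6 are uncertain.

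Within the groups of differing genes, the largest reversals at that level were Nefl and St8sia2. St8sia2, a polysialyltransferase, had 2.76, 1.81, 2.6 and 1.36 at P6 and 0.482, 0.378, 0.179 and 0.278 at P18 while Wt rose from 2.8 ± 0.857 to 11.3 ± 1.31 (difference of changes -4.69, adjusted p = 7.6e-08). Col7a1, an anchoring collagen, went the other way, from 3.61, 5.28, 5.26 and 6.21 to 41.6, 36, 45.3 and 38.1 in Tg (2.97) and -0.70 in Wt, and Ptprn, a protein of secretory granules, from 7.55, 7.45, 6.12 and 7.85 to 30.3, 42.1, 39 and 29.5 (2.28 against -1.31). Among enhanced genes, Itga10, a collagen receptor subunit, went from 1.58, 0.768, 1.39 and 1.08 to 25.6, 20.6, 26.5 and 22.1 (4.32 against 1.18). Among stalled genes, Pon1, an esterase, had 12.2, 12.3, 12 and 11.9 at P6 and 8.76, 7.37, 9.44 and 9.25 at P18, without overlap, and its Tg change of -0.47 was called with DESeq2 and with the 8 Tg libraries only, while Wt fell from 7.14 ± 0.202 to 0.479 ± 0.49. The 5 largest changes in Tg only were in genes without a settled name, whose reads may also be divided among copies, and no value is given for them.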

How the data were processed

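PolyA RNA of sciatic nerve was sequenced from 24 nerves. The authors aligned reads to rat genome rn6 with Bowtie2 2.0.2 in RSEM 1.2.29 and deposited its expected counts, raw estimates that share out reads matching more than 1 gene. CASAVA 1.8.2 is also named in the submitters' processing notes. Column names matched the labels and 0 columns of samples were left unused.

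Expected counts were rounded, a filter kept genes averaging 5 or more normalized counts, and edgeR 4.0.16 (R 4.3.3) fitted a quasi-likelihood model with 6 groups after TMM normalization. Contrasts were P18 against P6 in Tg, the same in Wt, and their difference, with Benjamini-Hochberg adjusted p under 0.05 over all genes tested. The difference shares no library between its arms. Tables and figures used Python 3.11.15, pandas 2.3.3 and matplotlib 3.10.9. Depth limits low genes most, and a group with at most 3 counts in each library is given no fold.

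Genes, lists and tests were chosen with earlier results of these data known. Besides 27 lists, 3 more were chosen after values were seen. Genes were named as the 5 markers, up to 4 members per list with the largest called rise, fall and difference, the 10 largest called rises and falls among genes with a mean of at least 50 counts, and 5 per class. Some genes under this rule are not reported here. Of 131 genes followed through every alternative, 36 are outside that rule and were chosen after their values were seen. Alternatives were DESeq2 1.42.0, RLE factors, total counts, other count filters, fewer libraries, a replicate block, leaving out each of 16 libraries, a stricter call and a term for Y-linked reads. No genome of build rn6 was used here, so genes carry no coordinates of that build.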

Additional observations from a re-analysis of the deposited data

Results flagged for a closer look

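The difference between genotypes was itself called for 844 genes with the higher change in Tg and 764 with the lower, and among the markers for Pmp22 (-0.99 on the log2 scale), Ngfr (2.34), Jun (1.50) and Nefl (4.49).

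In 16 of 266 sets of 4 Tg libraries, the highest or lowest library stood far from the other three, by Dixon's gap ratio, where chance alone gives about 1 in 20 sets, or 13.3. P6 Tg replicate 1 was the distant library for Cd9 (1328 normalized CPM), Nefh (3.61), Cyp51 (397), Insig1 (179), Scd1 (42.3) and Cpxm2 (1.64). P6 Tg replicate 2 was distant for Ccnd1 (372) and P6 Tg replicate 3 for Ucn2 (0.924). At P18, Tg replicate 1 was distant for Acat2 (80.3), replicate 2 for Erbb2 (99.0), Stard4 (25.0) and Lama4 (544), and replicate 3 for Igf2 (545.5) and Cpa3 (27.5). P18 Tg replicate 4 was distant for 2 structural RNAs, Rn5-8s (289.8) and Rn7sl1, the RNA of the signal recognition particle (249). What sets these libraries apart was not tested.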

How the results depend on the processing

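No called change of a followed gene turned its sign under any alternative. Of 6335 values 6253 kept direction and call, 47 lost the call and 35 gained it, and a further 84, called in neither fit, changed sign. With total counts only, Wt had 1985 rises and 6344 falls, the difference was higher in Tg for 2787 genes and lower for 409, and 1521 genes were stalled, 693 attenuated and 164 enhanced, with the shift of the median given in the report. A call that also asks for an absolute log2 change over 1 gave 903 rises and 521 falls in Tg, 997 and 754 in Wt, and 274 higher and 174 lower differences. Leaving out 1 library gave 2518 to 3219 rises and 2313 to 3302 falls in Tg, 2909 to 3416 and 3022 to 3479 in Wt, and 679 to 924 higher and 609 to 937 lower differences. In the same fits 464 to 733 genes were stalled, 128 to 180 reversed, 293 to 424 attenuated, 78 to 114 enhanced and 282 to 444 changed in Tg only. DESeq2 gave 2940 rises and 3155 falls in Tg. The term for Y-linked reads, chosen after seeing the data, gave 2772 and 2725, and 661 higher and 647 lower differences. The cause of these shifts was not tested.

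Replicate numbers did not pair the Tg libraries of both ages, with correlations of deviations between same-numbered libraries of 0.051, -0.028, 0.1 and 0.005. Between P18 Tg and P18 Wt they were 0.23, 0.048, 0.034 and 0.215, and the same number was the best match for replicates 1, 2 and 4. Between P6 Tg and P6 Wt they were 0.05, -0.136, -0.141 and 0.227, and between P6 Wt and P18 Wt -0.373, 0.101, -0.086 and -0.094. With the replicate block 2838 genes rose and 2818 fell in Tg, 839 differences were higher and 734 lower, 552 genes were stalled and 154 reversed.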

Other observations

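Lists for MHC class II and for the interferon response were chosen after seeing the data. All 6 tested MHC class II genes, which present antigen, rose in Tg (median 4.21) and 5 rose in Wt (median 2.95), beside 17.9% and 20.5% of all tested genes. The change was called higher in Tg for 4 of them, beside 5.29% of all tested genes, with 2 without P18 Tg replicate 3, P6 Tg replicate 2 or P6 Wt replicate 2. Of 10 interferon-response genes, edgeR's test called 0 as changed in Tg (1 at an unadjusted p under 0.05), and 6 fell without P18 Tg replicate 4; DESeq2 also called 0 with all libraries. In Wt 8 of them fell. The change was called higher in Tg for 3 of them, beside 5.29% of all tested genes, and for 5 with total counts only. Of all tested genes 17.9% fell in Tg and 21.3% in Wt.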
